A study of Mus musculus with 6 samples.

Results

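AMPA receptors are the glutamate-gated channels that carry most fast excitatory transmission in the hippocampus. Their messenger RNAs were examined here in the whole hippocampus of mice with and without Tet1, each after a seizure. The genes described are the 4 pore-forming subunits Gria1, Gria2, Gria3 and Gria4, the 3 transmembrane AMPA receptor regulatory proteins (TARPs) Cacng2, Cacng3 and Cacng8, and the 2 cornichon homologues Cnih2 and Cnih3. They were taken by symbol from the deposited expression table, which held a row for each of the 9 among 23361 genes. The rule that picks them uses symbols and no measured value, though the list was drawn up with earlier results of these data known.

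The Tet1-deficient group had 3 libraries from mice labelled Tet1Δe4-/-, a homozygous deletion named after exon 4 of Tet1, a dioxygenase that oxidises 5-methylcytosine in DNA. The wild-type group had 3 libraries from Tet1+/+ mice. Both groups had been given electroconvulsive shock by ear clamps (18 mA, 100 Hz, pulses of 0.2 ms for 1.15 seconds), and hippocampi were frozen 1.5 to 2 hours later. Libraries of unshocked mice were not analysed here, so no induction by the shock was measured. The labels used here give no age or strain. The title of wild-type replicate 1 holds a letter f where the other titles hold an m, and the labels explain neither letter. Replicate numbers are names given here and pair no libraries. Values are FPKM, fragments per kilobase of transcript, scaled by the mapped fragments of the library, so levels of different genes can be compared per length. FPKM carries no read count, so the depth behind each value is unknown.

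The channel is a tetramer of GluA1 to GluA4, the products of Gria1 to Gria4. TARPs and cornichons bind the assembled pore, help to bring it to the synapse and slow its closing, and TARPs tie it to postsynaptic scaffolds. GluA2 sets whether calcium passes, because its messenger RNA is edited at a glutamine codon in the pore, the Q/R site, which then reads as arginine. GluA1 and GluA2 dominate in hippocampal pyramidal cells, GluA4 is known from interneurons and glial precursors, and TARP gamma-8, the product of Cacng8, is the TARP most typical of the hippocampus.

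The pore stretch is shown for Gria2 and Gria4 because a gene-level FPKM cannot tell edited from unedited transcripts, and the codon shows what editing acts on. Each line is 45 bases of coding sequence, 5′ to 3′, from GENCODE release M21 (transcripts Gria2-201 and Gria4-201), with the codon at the Q/R site in capitals.
Gria2: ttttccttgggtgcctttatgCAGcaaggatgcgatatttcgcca
Gria4: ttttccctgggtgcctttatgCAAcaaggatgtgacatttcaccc
The 2 stretches differ at 6 of 45 bases. The codon is CAG in Gria2 and CAA in Gria4, and both encode glutamine in the genome. In Gria2 the adenosine of this codon is the one that the editing enzyme of Adarb1 converts.

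TET1 acts on methylated cytosine, which in mammals lies mostly in CG dinucleotides, so CG was counted in promoter windows of 250 bases before to 50 bases after the gene start (RefSeq, GRCm38.p6). CG reads the same on both strands. Windows were found for 7 of the 9 genes. Gria1 and Gria3 had no entry. The RefSeq starts behind the windows of Cacng2, Cacng3 and Cacng8 lie inside the GENCODE spans given below, so those 3 windows do not cover the start printed for the gene. Cnih3 held 42 CG, Gria2 26, Cnih2 25, Cacng2 20, Gria4 17, Cacng3 9 and Cacng8 2, against a median of 7 over 32851 windows. Of all windows, 3.03% held as many CG as Cnih3, 16.9% as many as Gria2 and 85.9% as many as Cacng8. The 250 bases before the start are shown for the pore subunit with the highest level and for the one with the lowest, on the strand of the gene, with each CG in capitals. The Gria2 stretch is chr3:80802836-80803085 and the Gria4 stretch is chr9:4796235-4796484, both on the minus strand.
Gria2: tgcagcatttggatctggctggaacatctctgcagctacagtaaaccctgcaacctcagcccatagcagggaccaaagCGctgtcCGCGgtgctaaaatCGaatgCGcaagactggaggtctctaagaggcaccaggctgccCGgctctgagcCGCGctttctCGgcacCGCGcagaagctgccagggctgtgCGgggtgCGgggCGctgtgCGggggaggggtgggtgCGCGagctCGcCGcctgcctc
Gria4: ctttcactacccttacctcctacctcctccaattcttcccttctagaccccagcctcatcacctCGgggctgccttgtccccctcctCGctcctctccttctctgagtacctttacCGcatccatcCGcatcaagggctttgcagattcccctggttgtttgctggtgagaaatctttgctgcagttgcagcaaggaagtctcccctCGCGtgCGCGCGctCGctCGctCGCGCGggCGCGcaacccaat
The Gria2 stretch holds 19 CG, spread over its later part. The Gria4 stretch holds 16, many of them close to the start. Methylation was not measured in these libraries, and the counts describe letters only.

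The 6 libraries correlated with Pearson's r from 0.965 to 0.990 across tested genes. Tet1-deficient replicate 1 and wild-type replicate 1 stood apart from the other 4 libraries on the first principal component, which held 53.3% of the variance. Because there is 1 such library in each genotype, results are given with and without them below. Tet1 itself had 0.740, 0.685 and 0.638 FPKM in Tet1-deficient libraries, against 0.977, 0.718 and 0.897 FPKM in wild-type libraries (two-sided exact permutation p = 0.2). This value covers the whole gene, so the loss of exon 4 was not checked by it. Across 12533 tested genes, Gm3893, Gm10406 and Gm3558 were called higher and Ndn lower in Tet1-deficient hippocampus. Pyramidal cell, granule cell, interneuron and glial markers were all detected, and every listed gene of these lists entered the test. In bulk tissue, fewer cells of a type and less RNA per cell cannot be told apart.

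None of the 9 AMPA receptor genes passed the test between genotypes. In limma's moderated test with Benjamini-Hochberg adjustment over all 12533 tested genes, 0 of 9 had an adjusted p under 0.05, against 0.0319% of all tested genes. At an unadjusted p under 0.05 the count was 0 of 9, against 1.36% of tested genes. Mean levels over the 6 libraries ran from 14.0 FPKM for Cacng2 to 256 FPKM for Gria2, a ratio of 18.3. In Tet1-deficient hippocampus 6 of the 9 were higher and 3 were lower, against 6632 higher and 5901 lower over all tested genes. The median log2 difference was 0.02 for the 9 genes, against 0.0055 over all tested genes. The median absolute log2 difference was 0.06 for the 9 genes and 0.05 for all tested genes. The groups overlapped for 8 of the 9 genes. Cacng2 was the exception, lower in each Tet1-deficient library, where groups did not overlap for 4.13% of all tested genes and did so in this direction for 2.21%.

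**Figure D1:**
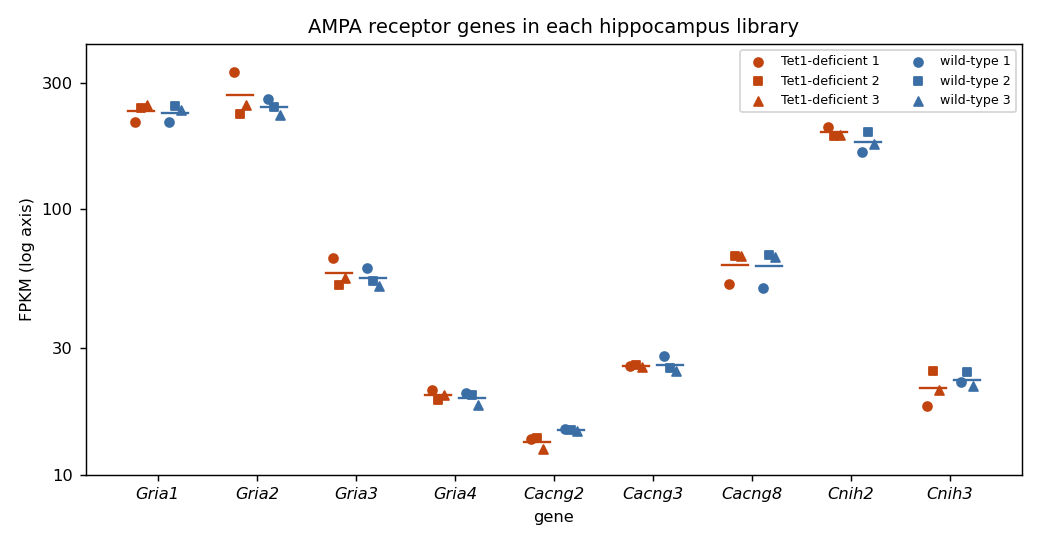
FPKM (log axis) of the 9 genes in each library, with Tet1-deficient libraries in red to the left of wild-type libraries in blue, marker shapes for replicates 1 to 3 and a line at each group mean. The Cacng2 points of Tet1-deficient libraries (12.6 to 13.7 FPKM) lie below those of wild-type libraries (14.6 to 14.9 FPKM), and the groups overlap for the 8 other genes.

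Among the pore-forming subunits, Gria1 and Gria2 were expressed at like levels and far above Gria3 and Gria4. Gria1, on chromosome 11 from 57011387 to 57330244 (mm10), encodes GluA1, the subunit whose insertion and phosphorylation accompany synaptic potentiation. It had 214, 242 and 247 FPKM in Tet1-deficient libraries, against 213, 246 and 236 FPKM in wild-type libraries. Replicate 1 was the lowest of each genotype and the groups overlapped. The group means were 234 ± 17.4 FPKM in Tet1-deficient and 232 ± 16.8 FPKM in wild-type hippocampus (SD, n = 3 each), and the log2 difference was 0.02 (SE 0.099, limma adjusted p 1.00, 95% interval −0.22 to 0.25). The interval corresponds to ratios of FPKM + 1 from 0.859 to 1.19.

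Gria2, on chromosome 3 from 80681450 to 80802835, encodes the calcium-limiting subunit whose pore codon is shown above. It had 329, 229 and 248 FPKM in Tet1-deficient libraries, against 261, 244 and 226 FPKM in wild-type libraries. Here replicate 1 was the highest of each genotype, and the value of 329 FPKM in Tet1-deficient replicate 1 lay above all others. The means were 269 ± 52.8 FPKM in Tet1-deficient and 244 ± 17.3 FPKM in wild-type hippocampus (SD, n = 3 each). The log2 difference was 0.13 (SE 0.15, limma adjusted p 1.00, 95% interval −0.22 to 0.48). Without Tet1-deficient replicate 1 it was −0.03.

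Gria3 lies on the X chromosome from 41400854 to 41678601 and encodes GluA3, which pairs mainly with GluA2. It had 65.6, 52.0 and 55.4 FPKM in Tet1-deficient libraries, against 60.1, 53.5 and 51.3 FPKM in wild-type libraries. Replicate 1 was highest in each genotype, as for Gria2. Between genotypes the log2 difference was 0.06 (SE 0.12, limma adjusted p 1.00), and without Tet1-deficient replicate 1 it was −0.03.

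Gria4, on chromosome 9 from 4417896 to 4796234, encodes GluA4, a subunit with fast kinetics. It was the least abundant pore subunit, with 20.8, 19.1 and 20.0 FPKM in Tet1-deficient libraries, against 20.3, 20.0 and 18.3 FPKM in wild-type libraries. All 6 values lay within 2.52 FPKM of each other and the groups overlapped. Their log2 difference was 0.03 (SE 0.088, limma adjusted p 1.00, 95% interval −0.18 to 0.24). Summed markers of GABAergic interneurons ran from 353 to 501 FPKM in Tet1-deficient libraries and from 440 to 559 FPKM in wild-type libraries, with 6 of 7 markers lower in Tet1-deficient hippocampus and 0 called. Summed markers of oligodendrocyte precursors ran from 109 to 156 FPKM in Tet1-deficient libraries and from 131 to 141 FPKM in wild-type libraries, with 4 of 6 lower and 0 called. Their part in the Gria4 values was not tested.

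The composition of the subunit pool was described as each gene's share of the summed FPKM of Gria1 to Gria4. This sum was 629, 542 and 570 FPKM in Tet1-deficient libraries, against 554, 563 and 531 FPKM in wild-type libraries. Gria2 made up 52.2%, 42.3% and 43.6% in Tet1-deficient libraries, against 47.0%, 43.3% and 42.5% in wild-type libraries. Gria1 made up 34.0%, 44.6% and 43.2% in Tet1-deficient libraries, against 38.4%, 43.6% and 44.4% in wild-type libraries. Both shares overlapped between genotypes, and the departures lay in replicate 1 of each. Gria3 held between 9.50% and 10.9% and Gria4 between 3.31% and 3.66% in all 6 libraries. The mean share of Gria2 was 46.0% ± 5.42 in Tet1-deficient and 44.3% ± 2.41 in wild-type hippocampus (SD, n = 3 each), a difference of 1.72 percentage points that was smaller than the spread within each group. It turned to −1.39 points without Tet1-deficient replicate 1, was 3.60, 2.95 and 3.09 points without Tet1-deficient replicate 2, Tet1-deficient replicate 3 and wild-type replicate 1 and 0.833 points without wild-type replicate 3, and was −0.0196 points in the 4 libraries without the 2 that stand apart.

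**Figure D2:**
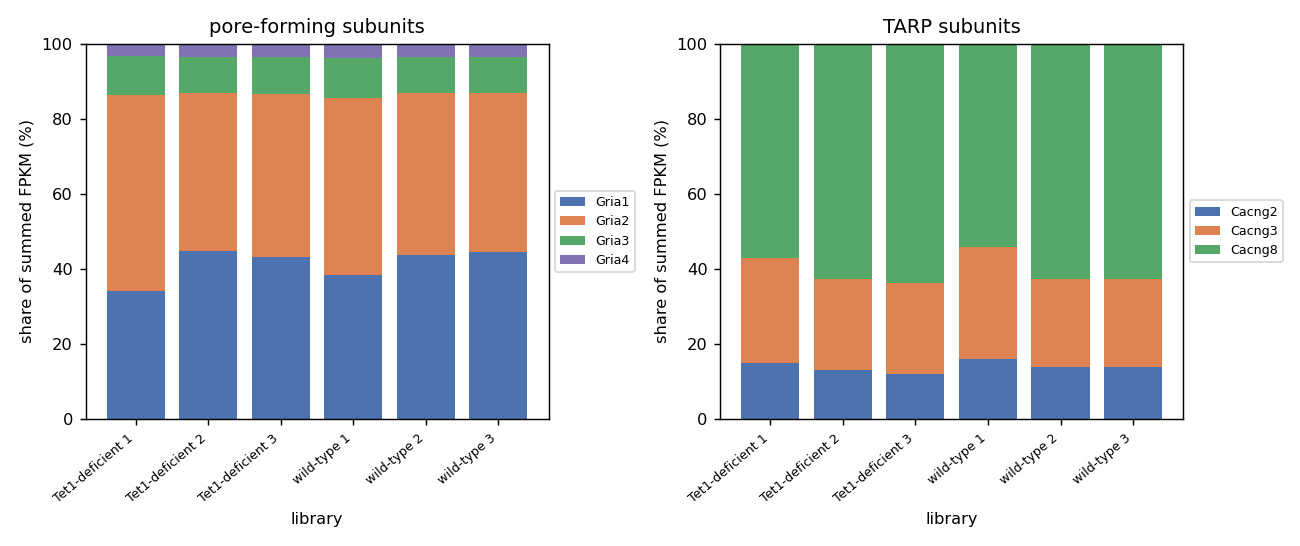
Share of summed FPKM (%) held by each pore-forming subunit (left) and each TARP (right) in the 6 libraries, Tet1-deficient libraries first. In replicate 1 of each genotype Gria2 holds a larger share (52.2% and 47.0%) than in the other 4 libraries. Cacng8 holds a smaller share of the TARP pool there (57.1% and 54.1%) than in those 4.

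Among the TARPs, Cacng8 led, followed by Cacng3 and Cacng2. Cacng2, on chromosome 15 from 77991748 to 78120028, encodes stargazin, the founding TARP, which is mutated in the stargazer mouse. It had 13.6, 13.7 and 12.6 FPKM in Tet1-deficient libraries, against 14.9, 14.7 and 14.6 FPKM in wild-type libraries. Every Tet1-deficient value lay below every wild-type value, by 0.859 FPKM at the nearest pair. The means were 13.3 ± 0.657 FPKM in Tet1-deficient and 14.7 ± 0.141 FPKM in wild-type hippocampus (SD, n = 3 each), a ratio of 0.903. The log2 difference was −0.14 (SE 0.082, 95% interval −0.33 to 0.06), with a limma unadjusted p of 0.140 and an adjusted p of 1.00. The two-sided exact permutation p was 0.1, the smallest that 3 against 3 libraries can give.

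The Cacng2 difference kept its sign in each of the 14 alternative settings tried, with log2 differences from −0.19 to −0.10. Because the groups did not overlap, only median-of-ratios scaling and quantile normalization could have turned that sign. The unadjusted limma p of this difference was 0.00458 with estimated library weights and 0.0323 with a term for the 2 libraries that stand apart. Both fits lowered p-values over the whole table. Of 12533 tested genes, 1232 had an unadjusted limma p under 0.05 with the weights and 848 with the term, against 171 in the main fit. Those weights were 6.89 for Tet1-deficient replicate 3, which had the lowest Cacng2 value, against 0.176 and 0.988 for Tet1-deficient replicates 1 and 2. The lowest adjusted p over all settings was 0.231, so the difference passed in none. In the 4 other libraries alone the unadjusted p was 0.0705. The annotation places the antisense transcript A730060N03Rik on the strand opposite Cacng2, and no level is given for it here. Genes on the opposite strand also overlap Cacng3, Cacng8, Cnih2 and Cnih3. On the same strand, annotated genes overlap Gria2, Gria3, Gria4, Cacng8 and Cnih3. Overlap was read from whole gene spans, and shared exons were not checked. Without a stated strand setting, reads from any exon shared by an opposite-strand pair cannot be told apart. All 5 CA1 markers were lower in Tet1-deficient libraries, with summed levels from 119 to 144 FPKM in Tet1-deficient and from 136 to 160 FPKM in wild-type hippocampus, and 0 were called. Of the interneuron markers 6 of 7 were lower as well, as given above. All 6 vessel and meningeal markers were lower (median log2 difference −0.49), with summed levels from 29.0 to 38.0 FPKM in Tet1-deficient and from 33.3 to 51.8 FPKM in wild-type hippocampus, and 0 were called. All 5 CA3 markers were higher (median 0.10), with summed levels from 171 to 175 FPKM in Tet1-deficient and from 155 to 173 FPKM in wild-type hippocampus, and 0 were called. The remaining marker lists went both ways. Pyramidal neurons, oligodendrocytes and astrocytes each counted 3 higher and 2 lower. Dentate granule cells counted 4 higher and 1 lower, and microglia 2 higher and 3 lower. Over all tested genes 6632 were higher and 5901 lower. The part of the marker lists in the Cacng2 values was not tested.

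Cacng3, on chromosome 7 from 122670492 to 122769393, encodes TARP gamma-3, the closest relative of stargazin. It had 25.7, 26.0 and 25.5 FPKM in Tet1-deficient libraries, against 28.1, 25.3 and 24.5 FPKM in wild-type libraries. The Tet1-deficient values fell inside the wild-type range, with a log2 difference of −0.01 (SE 0.088, limma adjusted p 1.00, 95% interval −0.22 to 0.20).

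Cacng8, on chromosome 7 from 3390683 to 3415648, encodes TARP gamma-8. It had 52.4, 66.5 and 66.7 FPKM in Tet1-deficient libraries, against 50.6, 67.2 and 66.0 FPKM in wild-type libraries. Replicate 1 of each genotype lay well below the other 4 libraries, which were within 1.17 FPKM of each other. The log2 difference between genotypes was 0.02 (SE 0.15, limma adjusted p 1.00, 95% interval −0.34 to 0.38). In the 4 other libraries alone it was −0.00020.

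The shares of the summed TARP level showed the same libraries. Cacng8 held 57.1%, 62.6% and 63.7% in Tet1-deficient libraries, against 54.1%, 62.7% and 62.8% in wild-type libraries. Cacng2 held 13.3% ± 1.47 in Tet1-deficient and 14.5% ± 1.21 in wild-type hippocampus (SD, n = 3 each). The groups overlapped for both shares. The summed level of the 3 TARPs was 0.175 ± 0.0261 of the summed level of Gria1 to Gria4 in Tet1-deficient and 0.186 ± 0.015 in wild-type hippocampus (SD, n = 3 each).

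Of the cornichons, Cnih2 lay far above Cnih3 in every library. Cnih2, on chromosome 19 from 5092868 to 5098521, encodes CNIH2, an export factor and auxiliary subunit of AMPA receptors in hippocampal neurons. It had 205, 189 and 191 FPKM in Tet1-deficient libraries, against 165, 196 and 177 FPKM in wild-type libraries. Wild-type replicate 2 lay among the Tet1-deficient values, so the groups overlapped. The means were 195 ± 8.67 FPKM in Tet1-deficient and 179 ± 15.7 FPKM in wild-type hippocampus (SD, n = 3 each). The log2 difference was 0.13 (SE 0.096, limma unadjusted p 0.230, adjusted p 1.00, 95% interval −0.10 to 0.35). It was 0.02 with library weights, 0.03 in the 4 libraries without the 2 that stand apart, 0.07 without wild-type replicate 1 and 0.19 without wild-type replicate 2. The gene Yif1a overlaps Cnih2 on the opposite strand and had from 4.15 to 5.57 FPKM.

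Cnih3, on chromosome 1 from 181352628 to 181460641, encodes the other cornichon known to bind AMPA receptors. It had 18.2, 24.5 and 20.8 FPKM in Tet1-deficient libraries, against 22.3, 24.4 and 21.6 FPKM in wild-type libraries. The lowest and the highest value both belonged to Tet1-deficient libraries. The log2 difference was −0.11 (SE 0.12, limma adjusted p 1.00, 95% interval −0.40 to 0.19), and without Tet1-deficient replicate 1 it was −0.0083. The ratio of Cnih2 to Cnih3 was 11.3, 7.72 and 9.18 in Tet1-deficient libraries, against 7.38, 8.01 and 8.19 in wild-type libraries.

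**Figure D3:**
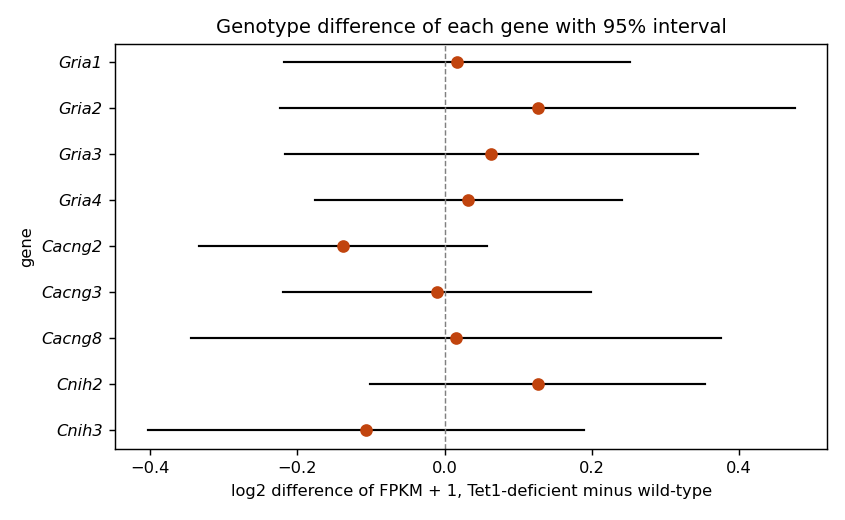
Log2 difference of FPKM + 1 (Tet1-deficient minus wild-type) of each gene, points, with limma's 95% interval, lines. Every interval includes 0, from the difference of −0.14 for Cacng2 to those of 0.13 for Gria2 and Cnih2.

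Ordered by their mean over the 6 libraries, the genes ran Gria2 (256 FPKM), Gria1 (233 FPKM), Cnih2 (187 FPKM), Cacng8 (61.6 FPKM), Gria3 (56.3 FPKM), Cacng3 (25.8 FPKM), Cnih3 (22.0 FPKM), Gria4 (19.7 FPKM) and Cacng2 (14.0 FPKM). The order was not settled at 3 places, where the ranges of neighbours overlapped. Gria2 exceeded Gria1 in 3 of 6 libraries, Cacng8 exceeded Gria3 in 4 of 6 and Cnih3 exceeded Gria4 in 5 of 6. At the other 5 places the upper gene was higher in 6 of 6 libraries without overlap. Gria2 ranked 209th and Gria1 247th by mean among all 23361 genes, and Cacng2 ranked 5283rd.

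In size, the difference between the 2 libraries that stand apart and the other 4 exceeded the genotype difference, except for Cacng2 and Cnih2. These log2 differences were 0.04 against −0.14 for Cacng2 and −0.03 against 0.13 for Cnih2. The ratio of Gria2 to Gria1 was 1.53, 0.947 and 1.01 in Tet1-deficient libraries, against 1.22, 0.993 and 0.958 in wild-type libraries. It was highest in Tet1-deficient replicate 1 and wild-type replicate 1, and between 0.947 and 1.01 in the other 4. The mean of those 2 libraries minus the mean of the other 4, on the log2 scale, was 0.31 for Gria2, 0.24 for Gria3, −0.18 for Gria1 and −0.36 for Cacng8. For these 4 genes replicate 1 departed the same way in both genotypes, as it did for Gria4, Cacng2 and Cnih3. For Cnih2 it did not, with log2 departures of 0.11 within Tet1-deficient and −0.17 within wild-type hippocampus. Nor did it for Cacng3, with −0.0015 within Tet1-deficient and 0.17 within wild-type hippocampus. The split was found in these data, so the differences are a description with no test. The median absolute difference between these 2 and the other 4 libraries was 0.17 for the 9 genes and 0.22 for all tested genes.

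Base composition moved with this split. The longest coding transcript had a GC content of 36.8% for Gria2 and 43.0% for Gria3, which were higher in the 2 libraries, of 48.5% for Gria1, which was lower, and of 65.1% for Cacng8, which was lower by the most. The other 5 genes had a GC content of 44.3% (Gria4), 51.2% (Cacng2), 53.3% (Cnih3), 54.6% (Cacng3) and 62.3% (Cnih2), with log2 differences of the 2 libraries from the other 4 of 0.08, 0.04, −0.17, 0.08 and −0.03. Across the 11811 tested genes with an annotated transcript, Pearson's r between GC content and the difference of the 2 libraries from the other 4 was −0.66, and between log2 transcript length and that difference it was 0.05. These correlations are across genes, which share the libraries and are not independent replicates. The part of base composition in the subunit values was not tested further.

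**Figure D4:**
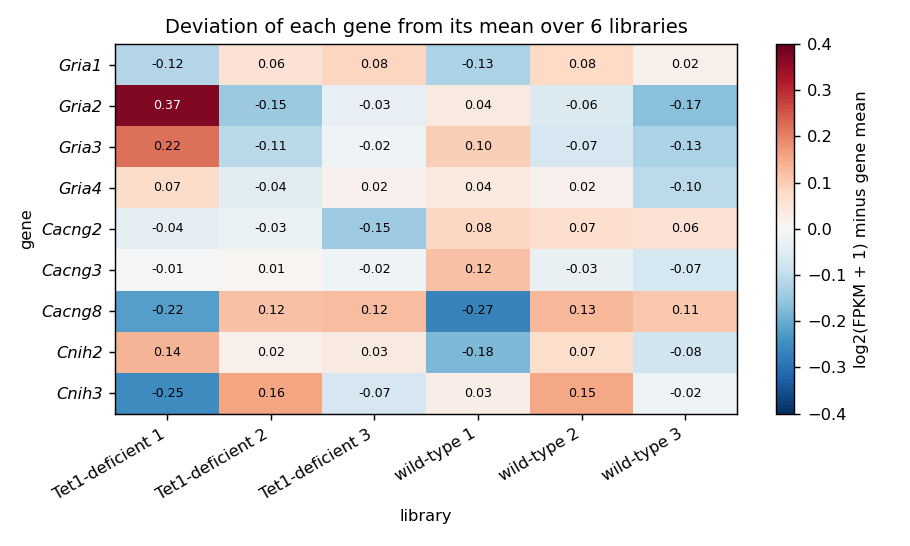
Deviation of each gene's log2(FPKM + 1) from its mean over the 6 libraries, by gene (rows) and library (columns, Tet1-deficient first), in red for higher and blue for lower. Gria2 and Gria3 are high and Gria1 and Cacng8 low in replicate 1 of both genotypes, and Cacng2 is below its mean in all 3 Tet1-deficient and above it in all 3 wild-type libraries.

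Gria2 had both the highest mean and the largest spread of the 9 genes, with an SD of 0.20 on the log2 scale. The 3 tested genes whose centred log2 profile over the 6 libraries lay nearest to it were Mrps33, Homer2 and Ppia, with root mean square differences of 0.017, 0.017 and 0.021. Mrps33 had 69.8, 48.2 and 52.6 FPKM in Tet1-deficient libraries, against 55.1, 50.8 and 46.2 FPKM in wild-type libraries. The 3 genes were picked for likeness to the Gria2 profile, so they shared its highest value in Tet1-deficient replicate 1 by that choice.

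Genes that assemble, place and modify AMPA receptors were read from the same fit. A list of 4 relatives not known as AMPA receptor subunits was read with them. Of 66 genes in 4 lists, 62 were tested, of which 40 were higher and 22 lower in Tet1-deficient hippocampus. The counts of pathway genes here include the 2 tested relatives, both higher. Over all 12533 tested genes 6632 were higher and 5901 lower. By limma 0 of the pathway genes were called, against 0.0319% of all tested genes. An unadjusted p under 0.05 was found for 1 of them (1.61%), against 1.36% of all tested genes. The log2 differences of the pathway genes lay between −0.15 and 0.21, with a median of 0.02. Of the listed symbols 2 were not analysed here, and Cacng1 and Cacng6 lay under the level of 1 FPKM that the test required.

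Other auxiliary and assembly proteins counted 14 higher and 4 lower of 18 tested, with a median log2 difference of 0.04 and 0 called. Abhd6, a lipase that restrains surface delivery of AMPA receptors, had 40.8, 43.4 and 38.9 FPKM in Tet1-deficient libraries, against 35.1, 38.6 and 37.0 FPKM in wild-type libraries. These groups did not overlap, as for 1.91% of all tested genes in the same direction (log2 difference 0.15, limma unadjusted p 0.135, adjusted p 1.00). Frrs1l, an endoplasmic reticulum protein needed for receptor assembly, had 82.6, 63.7 and 63.4 FPKM in Tet1-deficient libraries, against 70.1, 57.5 and 55.5 FPKM in wild-type libraries. Replicate 1 was again the highest of each genotype (log2 difference 0.19, limma unadjusted p 0.232, adjusted p 1.00).

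Scaffold, trafficking and clustering proteins counted 11 higher and 12 lower of 23 tested, with a median of −0.0029 and 0 called. The syntaxin gene Stx3, whose product takes part in the exocytosis of AMPA receptors, had 13.8, 14.2 and 12.4 FPKM in Tet1-deficient libraries, against 10.3, 13.6 and 11.4 FPKM in wild-type libraries (log2 difference 0.19, limma unadjusted p 0.166, adjusted p 1.00). Myo6, a motor protein linked to endocytosis of AMPA receptors, had 23.1, 20.5 and 20.3 FPKM in Tet1-deficient libraries, against 22.1, 18.5 and 19.1 FPKM in wild-type libraries (log2 difference 0.09, limma unadjusted p 0.400, adjusted p 1.00). The groups overlapped for both.

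Kinases, phosphatases, editing and turnover enzymes counted 13 higher and 6 lower of 19 tested, with a median of 0.02 and 0 called. Camk2a, the kinase that phosphorylates GluA1 and its TARPs during potentiation, had 1415, 1354 and 1339 FPKM in Tet1-deficient libraries, against 1208, 1192 and 1142 FPKM in wild-type libraries. Every Tet1-deficient value lay above every wild-type value, as for 1.91% of all tested genes, and the ratio of means was 1.16. The log2 difference was 0.21 (SE 0.073) with a limma unadjusted p of 0.0230 and an adjusted p of 1.00. Genes higher at an unadjusted p under 0.05 in this fit made up 0.447% of all tested genes. With quantile normalization the log2 difference of Camk2a was 0.09 (limma unadjusted p 0.276). Its limma unadjusted p was 0.151 with no filter on level and from 0.0298 to 0.0932 with any 1 library left out. The lowest was 0.00253, with library weights, where 1232 of 12533 tested genes had a p under 0.05. Prkaca, a catalytic subunit of protein kinase A, had 69.7, 77.3 and 85.3 FPKM in Tet1-deficient libraries, against 78.0, 86.3 and 80.5 FPKM in wild-type libraries (log2 difference −0.08, limma unadjusted p 0.478, adjusted p 1.00). Adarb1, the editing enzyme that acts on the Gria2 codon shown above, was singled out after its values were seen. It had 33.6, 39.0 and 35.7 FPKM in Tet1-deficient libraries, against 30.9, 35.4 and 36.9 FPKM in wild-type libraries, and the groups overlapped.

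**Figure D5:**
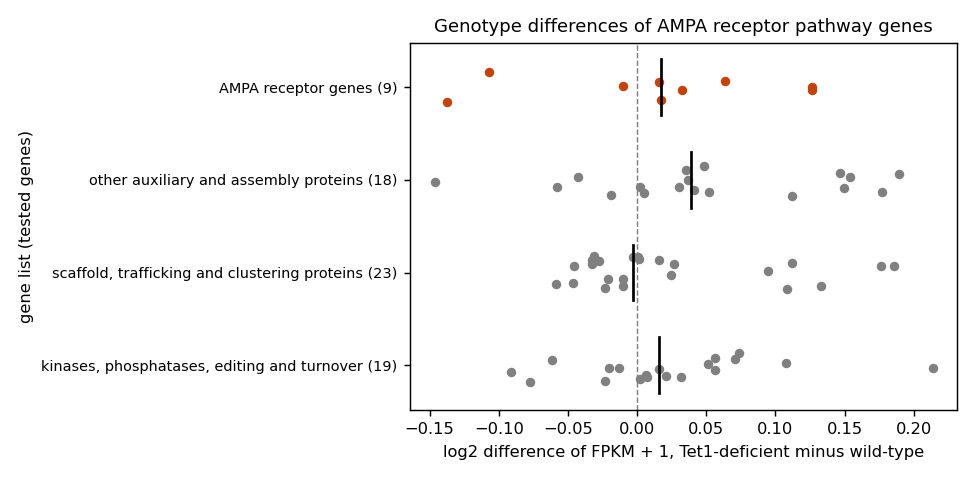
Log2 differences of FPKM + 1 (Tet1-deficient minus wild-type) of the 9 AMPA receptor genes (red) and of the tested genes in 3 lists (grey), with a black line at each median and random vertical jitter. The medians are 0.02, 0.04, −0.0029 and 0.02 from top to bottom, and the single point above 0.2 is Camk2a at 0.21.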

How the data were processed

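RNA sequencing was done on whole hippocampus. The authors deposited gene-level FPKM values for 6 libraries. TopHat2 2.0.9, Cufflinks 2.1.1 and the build mm10 are named by the submitters' processing notes, and the gene annotation and strand setting are not stated there. A mean of 1 FPKM or more was required, which left 12533 genes, and values were taken as log2(FPKM + 1), so differences of low genes are understated. Genotypes were compared by limma 3.58.1 (R 4.3.3), using a trend of variance on level, no covariate, a two-sided moderated test and Benjamini-Hochberg adjustment over all tested genes at 0.05. Single genes also had a two-sided exact permutation test. The depth is unknown, so no counting interval is given. The design text counts 3 mice per genotype. The limma p-values and intervals set a difference against the spread between these libraries, drawn toward a trend fitted over all tested genes.

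The 9 genes, the pathway lists and the markers were chosen with earlier results of these data known. Named were the 9 genes, the 2 smallest p-values of each pathway list, called genes, Tet1 and the profiles nearest to Gria2. Epb41l1 and Cnih1 were matched by older symbols. Gene positions and transcripts come from GENCODE M21 on the same build. Tried beside this were no filter, a pseudocount of 0.1 FPKM, median-of-ratios scaling, quantile normalization, no trend, library weights, a threshold of 0.1 and leaving out each library. A term for the 2 libraries that stand apart and a fit without them were added after the data were seen.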

Additional observations from a re-analysis of the deposited data

How the results depend on the processing

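In all 14 other fits, and at a threshold of 0.1, 0 of the 9 genes and 0 of the pathway genes were called, while the calls over all genes ran from 0 (without Tet1-deficient replicate 2 or wild-type replicate 3) to 59 with library weights, against 4. Cacng2, Cnih2 and Cnih3 kept their sign in every fit, and the 6 other genes turned in at least 1. For Cacng2, whose groups did not overlap, the sign could turn only in the settings that rescale the libraries. With quantile normalization the log2 difference was −0.023 for Gria1 and −0.0050 for Cacng8, with library weights it was 0.025 for Cacng3, and in the 4 libraries without the 2 that stand apart (chosen after seeing the data) it was 0.046 for Cacng3 and −0.00020 for Cacng8. The cause was not tested. When any 1 library was left out it ran from −0.042 to 0.080 for Gria1, −0.027 to 0.23 for Gria2, −0.031 to 0.13 for Gria3, −0.011 to 0.062 for Gria4, −0.048 to 0.045 for Cacng3 and −0.11 to 0.13 for Cacng8. The sign turned for Gria2 and Gria3 without Tet1-deficient replicate 1, for Gria4 without wild-type replicate 3, for Cacng3 without wild-type replicate 1, and for Gria1 and Cacng8 without Tet1-deficient replicate 2 or 3 or wild-type replicate 1. The difference in share was −0.104 percentage points for Gria4 in all libraries and 0.0212 in the 4. With 1 library left out the differences in share ran from −3.51 to 1.78 points for Gria1 (−1.52 in all), −1.39 to 3.60 for Gria2 (1.72), −0.354 to 0.328 for Gria3 (−0.0982), −1.23 to 2.15 for Cacng3 (−0.0245) and −1.61 to 3.28 for Cacng8 (1.27), so each could take either sign, while those of Gria4 (−0.158 to −0.0342) and Cacng2 (−2.04 to −0.547) stayed negative. No paired analysis was possible because the labels give no replicate numbers that pair the libraries. With 3 libraries against 3 and an unknown depth, differences of the size measured here could not be told from the spread between libraries.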

Other observations

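Relatives of the AMPA receptor auxiliary genes that are not known as such subunits were read from the same table. Cnih1, a cornichon of general secretory export, listed under its older symbol Cnih, had 46.8, 29.7 and 29.4 FPKM in Tet1-deficient libraries, against 42.8, 27.5 and 29.2 FPKM in wild-type libraries. Cnih4 had 11.4, 8.96 and 8.90 FPKM in Tet1-deficient libraries, against 10.7, 8.44 and 8.47 FPKM in wild-type libraries. For both genes replicate 1 was the highest of each genotype and the groups overlapped, with log2 differences of 0.08 each (limma adjusted p 1.00). Cacng6, a calcium channel gamma subunit of muscle, had from 0.389 to 0.791 FPKM over the 6 libraries, and Cacng1, the gamma subunit of skeletal muscle, was listed at 0 in 3 of them.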
